A study of Mus musculus with 2 samples.

Results

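A small group of endothelial cells in the late fetal mouse mitral valve, marked by Wnt4, Pthlh, Enpp2 and Prox1, is described here in 1 library from wild-type embryos and 1 library from embryos with Nfatc1-Cre and Dicer loxp/loxp. These cells were picked by their own transcripts. A UMI is 1 captured transcript molecule. Barcodes entered with 1000 UMIs or more from 500 genes or more, and with a mitochondrial share below 20%. It was called endothelial with at least 3 UMIs of Pecam1, Cdh5 and Egfl7 together. Its UMIs of Wnt4, Pthlh, Enpp2 and Prox1 had to sum to at least 3 and to exceed each of 5 other sums, those of the Npr3, Plvap and Col23a1, coronary capillary, arterial, Vwf and Procr, and lymphatic genes. Of 17162 kept barcodes, 252 met the rule: 197 of 10759 in the wild-type library (control) and 55 of 6403 in the Dicer1-targeted library (mutant).

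Both libraries hold mitral leaflets dissected at E17.5, with 3-4 hearts pooled per genotype, digested in 0.05% trypsin and sorted with a viability dye. The mutant embryos carry Nfatc1-Cre, a recombinase driven by Nfatc1 in the endocardial lineage, and have both Dicer1 alleles flanked by loxP. The labels give the controls as wild type and name no Cre for them. Dicer1 encodes the enzyme that cuts microRNA precursors into mature microRNAs. There is 1 library per genotype, so no test between genotypes was possible, and genotype, pool and library preparation cannot be told apart. Intervals in brackets are 95% intervals that cover counting error only.

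Heart valve leaflets are covered by endothelium of endocardial origin, and the upstream and downstream faces meet different blood flow. Wnt4 and Wnt9b are secreted WNT ligands. Pthlh encodes parathyroid hormone-related protein, a secreted peptide. Enpp2 encodes autotaxin, a secreted enzyme that makes lysophosphatidic acid. Prox1 is a transcription factor best known from lymphatic endothelium and the valves of lymphatic vessels, where it acts with Foxc2.

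The chosen cells made up 1.83% of kept control barcodes [1.59 to 2.10] and 0.859% of kept mutant barcodes [0.648 to 1.12]. Among endothelial barcodes the shares were 5.25% [4.55 to 6.01] of 3755 and 2.10% [1.59 to 2.73] of 2615. The shares are relative, and dissociation and sorting act on them, so they are not counts of cells per leaflet. The libraries also differed in sex. Of the chosen control cells, 190 were female-type (Xist and no Y-linked gene), none male-type and 7 open, against 40, 12 and 3 in the mutant. Among female-type barcodes alone the shares were 1.89% and 1.47%. The part of sex and of pooling in the difference was not tested.

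Depth differed as well. The files held 70221728 control and 69475632 mutant UMIs in 12793 and 8250 barcodes. The chosen cells had a median of 6141 UMIs (1167 to 18666) and 2505 genes in the control library, and 13206 UMIs (5925 to 26075) and 3982 genes in the mutant library. Levels are therefore given as CPM, which is counts per 1000000 of the UMIs summed over a cell class of 1 library, out of 1336923 control and 755810 mutant UMIs for the chosen cells. Shares of cells with a UMI are also given after thinning each cell to 3000 UMIs, which left out 8 shallower control cells and no mutant cell. The files shared 19 barcodes, none among the chosen cells.

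Genes that the rule did not use were also found in cells just outside it. Of the 23 control cells chosen with a sum of 3 or 4, 47.8% had a UMI of Ccdc141 and 56.5% of Hapln1. Of the 9 control cells with a sum of 2 that still led the other sums, 66.7% and 55.6% did, and these were not chosen. Of 21 control cells left out because another sum was equal, 38.1% and 47.6% did.

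The chosen cells carried endothelial markers beyond the 3 genes that the rule required. All 12 other pan-endothelial markers were found in at least 10% of them in both libraries. Their summed level was 3627 CPM in control and 4364 CPM in mutant, against 714 and 609 CPM in stromal cells. The 10 valve endothelial and endocardial markers outside the rule summed to 3376 and 3916 CPM, above the 2377 and 2671 CPM of the Npr3, Plvap and Col23a1 class. Stromal cells held 4685 and 4661 CPM of the same list, so its sum does not set the chosen cells apart from stroma. The 4 coronary capillary markers outside the rule summed to 38.9 and 27.8 CPM, against 577 CPM in the coronary capillary class of each library. Markers of valve interstitial and stromal cells summed to 2099 and 1238 CPM, against 17399.5 and 18567 CPM in stromal cells. Cardiomyocyte markers summed to 1604 CPM in control and 356 CPM in mutant, and 3 control cells held 1603 of the 2145 control UMIs. The pooled counts of genes that differed between the libraries are therefore repeated below without these 3 cells. Counts between kinds or classes of cell, and within a kind, are given with them.

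The 4 lymphatic markers outside the rule, Pdpn, Flt4, Tbx1 and Stab1, were lower in the chosen cells than in the lymphatic class. They summed to 97.2 CPM in control and 86.0 CPM in mutant chosen cells, against 1593 and 1626 CPM. Pdpn, the membrane glycoprotein podoplanin, had 0 UMIs in the chosen cells of both libraries, which allows up to 2.24 and 3.97 CPM taken as 3 counts, against 101 and 71.6 CPM. Flt4, a receptor for the lymphatic growth factor VEGF-C, was at 20.9 and 21.2 CPM against 375 and 386 CPM. Stab1, a scavenger receptor, was at 76.3 and 62.2 CPM against 1007 and 1061 CPM. Lyve1 and Ccl21a belong to a sum that every chosen cell had to exceed, so their low counts, 6 and 1 UMIs for Lyve1 and 0 and 2 for Ccl21a, follow in part from the rule.

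The 4 marker genes were unevenly shared out among the chosen cells. A UMI of both pairs, Wnt4 or Pthlh together with Enpp2 or Prox1, was found in 83 of 197 control and 20 of 55 mutant cells. In 91 of the 197 control cells Wnt4 and Pthlh outnumbered Enpp2 and Prox1, in 104 the reverse held, and 2 were even. The mutant cells split 38, 15 and 2. This split was made after the data were seen, and the names below, Wnt4/Pthlh-led and Enpp2/Prox1-led, state only which pair was ahead. Most Wnt4/Pthlh-led cells had no UMI of the other pair at all, 61 of 91 in control and 30 of 38 in mutant. Among Enpp2/Prox1-led cells 53 of 104 and 5 of 15 had none. A low count of the other pair is in part fixed by the split, so the kinds are compared below by genes outside the rule.

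**Figure D1:**
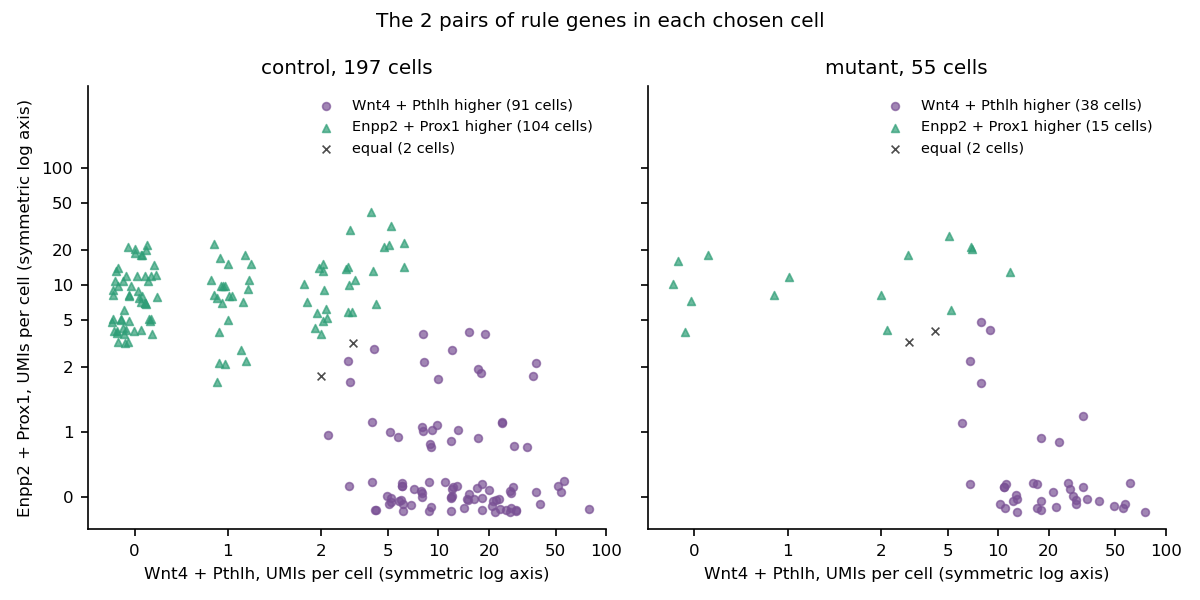
Each point is 1 chosen cell, by its UMIs of Wnt4 plus Pthlh (horizontal) and of Enpp2 plus Prox1 (vertical), in the control (left, 197 cells) and mutant (right, 55 cells) library. Both axes are linear near 0 and logarithmic above, points are shifted slightly at random so that equal counts can be told apart, and many cells lie along one axis or the other.

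Of the 4, Pthlh and Enpp2 were nearly confined to one kind by the split, and Wnt4 and Prox1 less so. Pthlh was at 629 CPM in control and 572 CPM in mutant Wnt4/Pthlh-led cells, and at 2.99 and 0 CPM in Enpp2/Prox1-led cells. Enpp2 showed the reverse, with 6.05 and 0 CPM against 880.2 and 405 CPM. Wnt4 was at 1620 and 1042 CPM in Wnt4/Pthlh-led cells and still at 159 and 240 CPM in the others. Prox1 was at 698 and 612 CPM in Enpp2/Prox1-led cells, beside the 890.3 and 680 CPM of the lymphatic class, and at 71.0 and 30.7 CPM in Wnt4/Pthlh-led cells. These values follow from how the cells were picked and split.

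Ccdc141 and Lsamp, which the rule did not use, differed in how they followed the split. Ccdc141, which encodes a coiled-coil protein, was shared: its level was 630 and 621 CPM in Wnt4/Pthlh-led cells and 293 and 1001 CPM in Enpp2/Prox1-led cells, against 33.6 and 35.2 CPM in the Npr3, Plvap and Col23a1 class. After thinning, 56.1% of control cells [48.7 to 63.3] and 78.2% of mutant cells [65.0 to 88.2] had a Ccdc141 UMI, against 2.62% and 2.88% of stromal cells, which serve as the free-RNA background. Unthinned, the shares in the chosen cells were 71.1% and 96.4%. Ccdc141 was not particular to the valve endothelium, since cardiomyocytes held 165 CPM in each library. Lsamp, a cell adhesion protein of the immunoglobulin family, sat with Enpp2 and Prox1: 400 and 176 CPM in those cells against 9.07 and 0 CPM in the Wnt4/Pthlh-led cells.

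**Figure D2:**
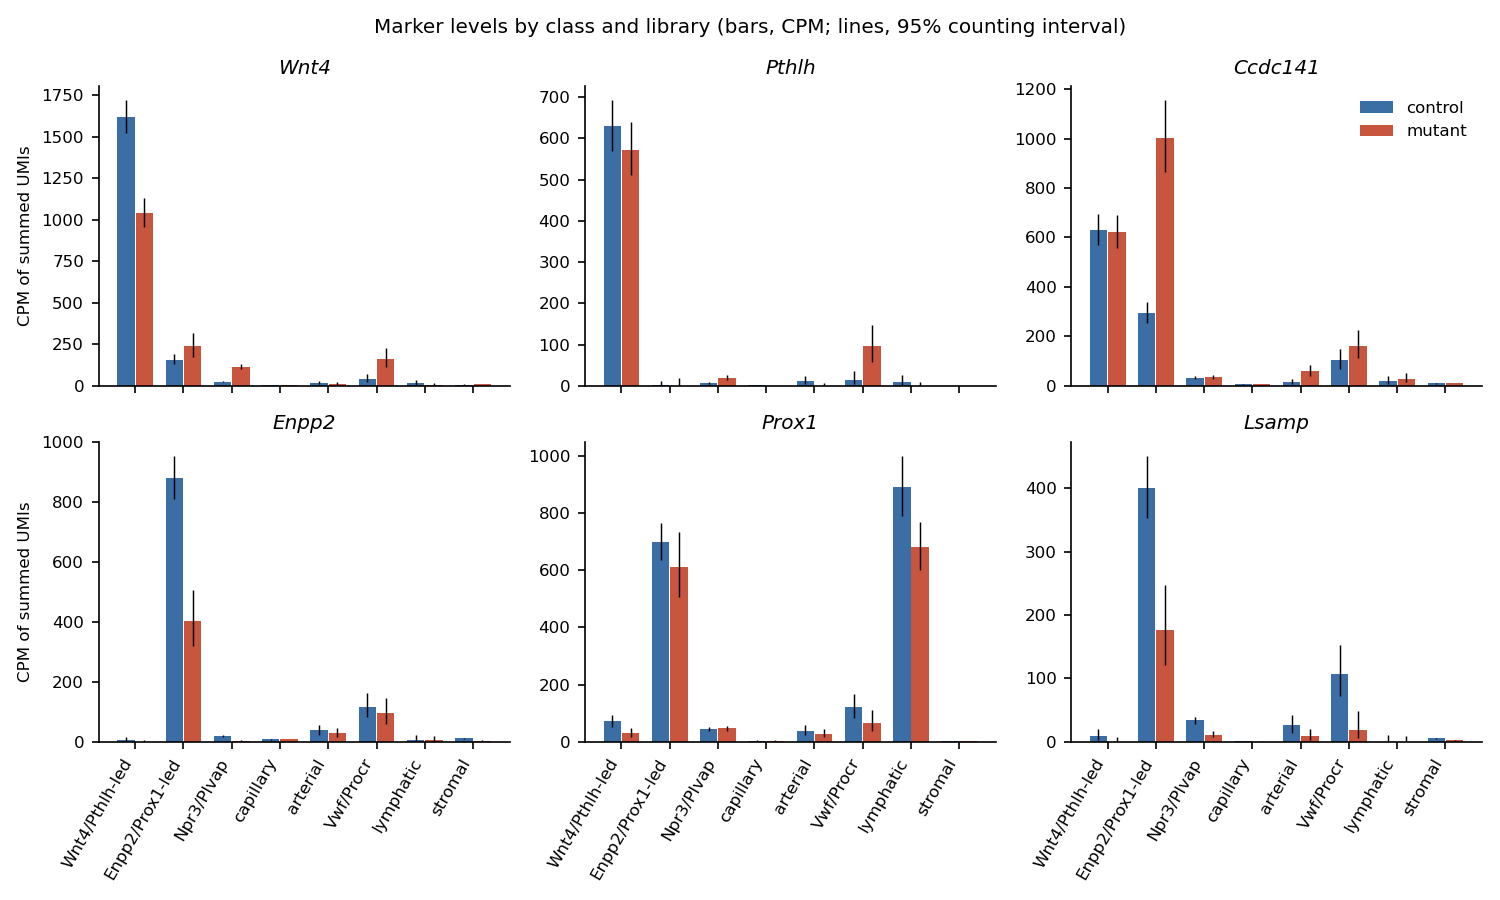
Bars give the level of 6 genes in CPM (vertical axis, linear from 0) in the 2 kinds of chosen cell, 5 other endothelial classes and stromal cells, control beside mutant, and the thin lines are counting intervals. Wnt4 and Pthlh stand in Wnt4/Pthlh-led cells, Enpp2 and Lsamp in Enpp2/Prox1-led cells, Ccdc141 in both, and Prox1 in Enpp2/Prox1-led and lymphatic cells.

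The proportions of the 2 kinds differed between the libraries. Wnt4/Pthlh-led cells were 46.2% of the chosen control cells [39.1 to 53.4] and 69.1% of the chosen mutant cells [55.2 to 80.9]. As shares of kept barcodes they were 0.846% [0.682 to 1.04] and 0.593% [0.420 to 0.814]. Enpp2/Prox1-led cells were 0.967% [0.790 to 1.17] and 0.234% [0.131 to 0.386] of kept barcodes. A pooled fold change between the libraries therefore also carries this change of proportions, and values within each kind are given beside it.

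A larger set of genes separated the 2 kinds in both libraries. The comparison took 3540 genes with at least 50 CPM in the higher kind of both libraries. Of these, 94 were at least 2-fold higher in Enpp2/Prox1-led cells in both libraries (2.66%), 244 were at least 2-fold higher in Wnt4/Pthlh-led cells (6.89%) and 8 went opposite ways. The 4 marker genes are not among them. The genes named here were the 12 furthest apart in each direction, ranked by the library closer to 0, and were chosen after the values were seen.

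The 12 genes furthest higher in Enpp2/Prox1-led cells were of mixed kinds. Pdgfra, a growth factor receptor of mesenchymal cells, was at 778 CPM in control and 820 CPM in mutant Enpp2/Prox1-led cells against 34.8 and 3.61 CPM in Wnt4/Pthlh-led cells. Cldn5, the tight junction claudin of endothelium, was at 491 and 261 CPM against 19.6 and 0 CPM. Fzd10, a WNT receptor, was at 181 and 293 CPM against 22.7 and 14.5 CPM. Timp3, an inhibitor of matrix proteases, was at 504 and 1001 CPM against 71.0 and 43.3 CPM. Pnliprp1, a lipase-related protein, had 73 and 52 UMIs there and 0 in Wnt4/Pthlh-led cells, at least 24.1-fold and 51.1-fold higher against a floor of 3 counts summed over the other kind in the same library. The remaining 7 were Lsamp, Asb4, Ahsg, Rnase4, Gxylt2, Ldb3 and Rasd1. As lists, 2 of 11 valve interstitial and stromal markers (Pdgfra and Twist1) were at least 2-fold higher in Enpp2/Prox1-led cells in both libraries and none in the other kind, with medians of -0.14 in control and 0.91 in mutant on the log2 scale. Of 12 pan-endothelial markers, 2 (Kdr and Cldn5) were higher there and 4 in Wnt4/Pthlh-led cells. Beside both lists, 4% of all 8846 genes with at least 10 CPM were that much higher in Enpp2/Prox1-led cells and 5.88% in Wnt4/Pthlh-led cells.

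Some genes of the Prox1 and Foxc2 programme of lymphatic and venous valves were higher in the same cells. Of 20 members other than Prox1 with at least 10 CPM, 5 were at least 2-fold higher in Enpp2/Prox1-led cells in both libraries and 2, Gja1 and Vegfc, in Wnt4/Pthlh-led cells. Over all 8846 genes at that level the shares were 4% and 5.88%, and the median log2 ratio of the list was 0.13 in control and 0.10 in mutant. Foxc2 was at 165 and 101 CPM in Enpp2/Prox1-led cells against 19.6 and 27.1 CPM. Foxc1, its close relative, was at 308 and 202 CPM against 93.7 and 72.2 CPM. Cldn11, Fn1 and Efnb2 were the other 3. Of 7 measured WNT target genes, 3 (Lef1, Tcf7 and Sp5) were higher in Enpp2/Prox1-led cells and none in Wnt4/Pthlh-led cells, while Wnt9b ligand transcripts sat in the latter.

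Wnt4/Pthlh-led cells held Wnt9b, Nppc and Notch pathway genes. Wnt9b had 72 control and 234 mutant UMIs (109 and 423 CPM) and 0 UMIs in 104 and 15 Enpp2/Prox1-led cells, at least 24.2-fold and 26.5-fold higher. Nppc, which encodes C-type natriuretic peptide, had 186 and 63 UMIs against 0, at least 62.6-fold and 7.12-fold higher. Sulf1, an enzyme that trims sulfate from heparan chains, was at 281 and 352 CPM against 5.99 and 5.32 CPM. Klk8, Stmn2, Rbp7, Ptprr, Hecw2, Ramp3, Arl4d, Tnfaip2 and Kcnc2 completed the 12.

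Flow-responsive and Notch genes leaned towards the Wnt4/Pthlh-led cells. Of 17 measured flow-responsive genes, 7 were at least 2-fold higher there in both libraries and 3 (Thbd, Timp3 and Kdr) in Enpp2/Prox1-led cells. Over all 8846 genes with at least 10 CPM, 5.88% were that much higher in Wnt4/Pthlh-led cells and 4% in Enpp2/Prox1-led cells. The same shares apply to the Notch and hyaluronan counts below. Klf4, a transcription factor induced by laminar flow, was at 361 and 609 CPM against 46.4 and 133 CPM. Nos3, endothelial nitric oxide synthase, was at 271 and 394 CPM against 76.4 and 85.2 CPM. Of 14 Notch genes, 5 were higher in Wnt4/Pthlh-led cells and none in the others. Among the 5, the ligand Jag1 was at 148 and 56.0 CPM against 26.9 and 5.32 CPM, and the target Hey2 at 151 and 179 CPM against 8.98 and 42.6 CPM. Of 9 hyaluronan and versican genes, 5 were higher in Wnt4/Pthlh-led cells and none in the others. The proteoglycan Vcan was at 858 and 404 CPM against 157 and 10.6 CPM.

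**Figure D3:**
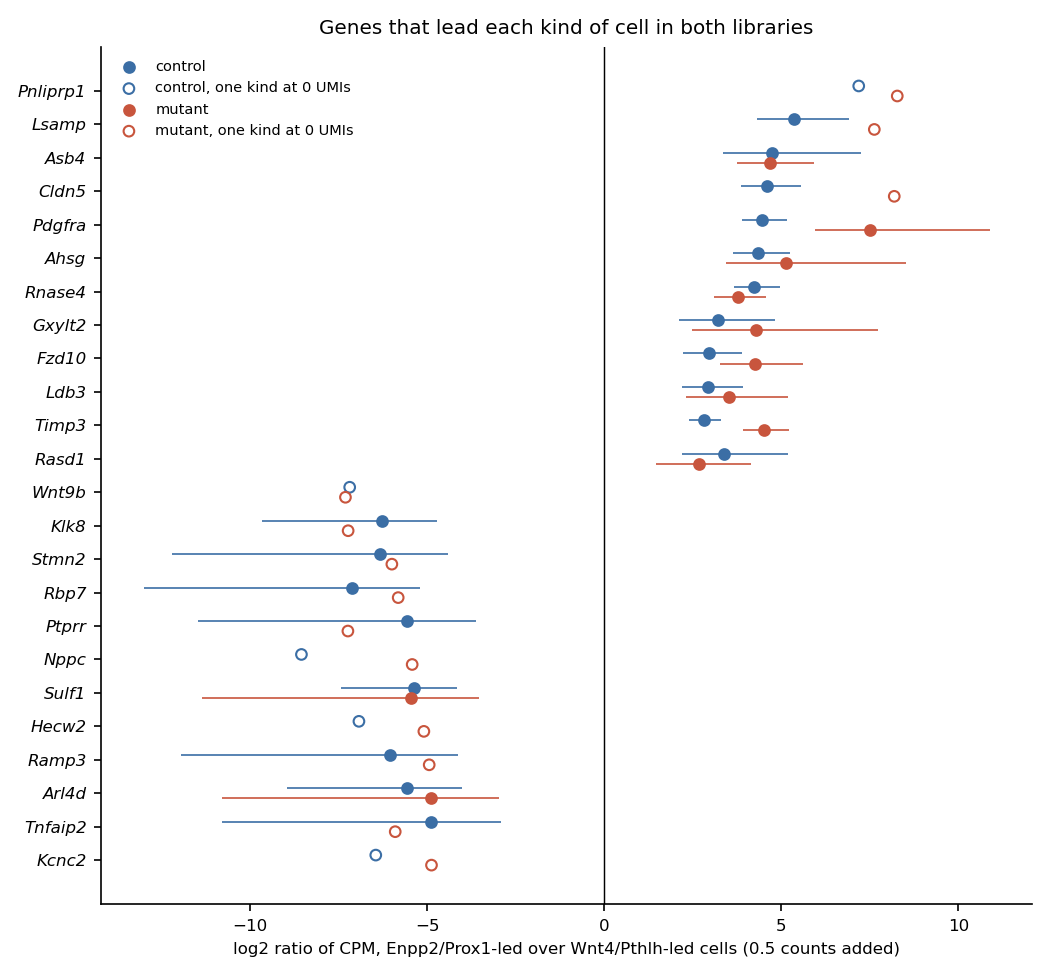
Each row is 1 of the 24 genes, with the log2 ratio of Enpp2/Prox1-led over Wnt4/Pthlh-led CPM (horizontal axis, 0.5 counts added) in control and mutant. Lines are counting intervals, and an open circle has 0 UMIs in one kind, so its position is no bound. The side of a gene is fixed by how it was chosen.

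Compared with the larger Npr3, Plvap and Col23a1 class (777 control and 214 mutant cells), the chosen cells differed by about as many genes in each direction. Of 3523 genes, 105 were at least 2-fold higher in the chosen cells in both libraries (2.98%), 107 were lower (3.04%) and 2 went opposite ways. The marker genes of both rules were left out. The 12 genes furthest higher, by the library closer to 0, were Ptprr, Pnliprp1, Fxyd7, Nppc, Wnt9b, Mapkapk3, Aqp8, Ccdc141, Cdkn1a, S100a6, Prnp and Tppp3. Cdkn1a, an inhibitor of cyclin-dependent kinases, was at 142 CPM in control and 278 CPM in mutant chosen cells against 11.3 and 26.6 CPM. Aqp8, a water channel, was at 106 and 221 CPM against 5.75 and 2.71 CPM. Not all of the 12 were shared by both kinds of chosen cell. Pnliprp1 had 0 UMIs in Wnt4/Pthlh-led cells of both libraries, and Wnt9b and Nppc had 0 in Enpp2/Prox1-led cells. Cdkn1a was at least 2-fold higher in Wnt4/Pthlh-led than in Enpp2/Prox1-led cells in both libraries.

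Among the genes furthest lower were Mal, Icam1, Pcdh7, Smoc1, Hmcn1, Dpp4, Cdkn1c, Bmx, Emcn, Trp53i11 and Plagl1. Cdkn1c, another inhibitor of cyclin-dependent kinases, was at 203 and 325 CPM in the chosen cells against 2607 and 2328 CPM. Emcn, a sialomucin of capillary and endocardial endothelium, was at 160.1 and 105 CPM against 1067 and 952 CPM. Hmcn1, an extracellular matrix protein, was at 82.3 and 39.7 CPM against 830.2 and 497 CPM. Outside this rule, Hapln1, which links hyaluronan to proteoglycans, was at 490 and 1719 CPM against 49.1 and 453 CPM. Nfatc1, the transcription factor whose promoter drives the Cre, was at 230 and 274 CPM against 88.7 and 93.5 CPM.

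The comparison of the libraries asks what targeting Dicer1 in the endocardial lineage goes with in these cells. Dicer1 itself (chromosome 12, 104687742 to 104751952 on the minus strand of GRCm38) had 133 UMIs in 87 of 197 control cells and 21 UMIs in 15 of 55 mutant cells. The level was 99.5 CPM in control and 27.8 CPM in mutant, a log2 ratio of -1.81 [-2.58 to -1.17]. It was lower in both kinds, at -1.78 in Wnt4/Pthlh-led and -1.85 in Enpp2/Prox1-led cells. After thinning, 27.5% of control cells [21.3 to 34.5] and 7.27% of mutant cells [2.02 to 17.6] had a Dicer1 UMI, against 18.1% and 14.5% of stromal cells. A separate random draw within each kind gave lower control shares. These were 21.1% in control and 7.89% in mutant Wnt4/Pthlh-led cells, and 19.4% and 6.67% in Enpp2/Prox1-led cells. The intervals do not cover the draw. In the Npr3, Plvap and Col23a1 class the ratio was -0.77 and in coronary capillary cells -0.32. These 3′ tags may lie outside the deleted part, and the labels name no exon.

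Of 3543 genes with a mean of at least 50 CPM in the chosen cells, 131 were at least 2-fold higher in the mutant library (3.7%) and 87 were lower (2.46%). For 57 and 26 of these the whole interval lay beyond 2-fold. Within Wnt4/Pthlh-led cells 99 genes were higher (2.79%) and 75 lower (2.11%). Within the 15 mutant Enpp2/Prox1-led cells 262 were higher (7.71%) and 151 lower (4.44%), where few cells widen the counting error. The Npr3, Plvap and Col23a1 class had 39 higher (1.15%) and 15 lower (0.441%), and coronary capillary cells, which are many more, had 2 (0.0627%) and 1 (0.0313%). Without the 3 control cells rich in cardiomyocyte transcripts, 127 genes were higher and 77 lower in the chosen cells.

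The 12 genes furthest higher in the mutant library included secreted ligands, a transcription factor and cell surface proteins. Nrg1, the ligand neuregulin that signals from endocardium to myocardium, was at 9.72 CPM in control (9 of 197 cells) and 179 CPM in mutant (23 of 55 cells), a log2 ratio of 4.15 [3.38 to 5.15]. With the selection rule applied at 3000 UMIs a cell the ratio was 2.54. Both kinds were higher in the mutant library, from 16.6 to 218 CPM in Wnt4/Pthlh-led and from 2.99 to 74.5 CPM in Enpp2/Prox1-led cells. In the Npr3, Plvap and Col23a1 class Nrg1 was at 142 and 178 CPM, so the chosen cells lay below that class in control and level with it in mutant.

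Fst, which encodes follistatin, an extracellular inhibitor of activins and BMPs, was at 43.4 CPM in control and 523 CPM in mutant, a log2 ratio of 3.58 [3.19 to 4.01], and 2.01 with the selection rule at 3000 UMIs a cell. Most of this was in Enpp2/Prox1-led cells, at 43.4 CPM in control (15 of 104 cells) and 1640 CPM in mutant (13 of 15 cells), with 32.1% of the mutant UMIs in the highest cell. In Wnt4/Pthlh-led cells Fst was at 43.8 and 103 CPM. Wnt9b was detected in 30 of 91 control and 29 of 38 mutant Wnt4/Pthlh-led cells, at 109 and 423 CPM, a log2 ratio of 1.95 within that kind and 2.52 over all chosen cells [2.14 to 2.93]. No Enpp2/Prox1-led cell of either library had a Wnt9b UMI.

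Arid3a, a DNA-binding protein and known let-7 target, was at 18.7 CPM in control (22 cells) and 101 CPM in mutant (29 cells), a log2 ratio of 2.41 [1.76 to 3.14], and 1.63 without cells of at least 3 UMIs of G2 and M genes. It was higher in both kinds, with log2 ratios of 1.75 and 3.50, and in the Npr3, Plvap and Col23a1 class with 2.49, against 0.55 in coronary capillary cells. Ly6a, a surface protein anchored in the membrane, was at 15.1 and 226 CPM in Wnt4/Pthlh-led cells, with 8 of 91 and 16 of 38 cells positive, and had 3 and 0 UMIs in Enpp2/Prox1-led cells. Srgn, the proteoglycan serglycin, was at 39.3 and 291 CPM in Wnt4/Pthlh-led cells. Adgrl4, an adhesion receptor of endothelium, was at 22.7 and 141 CPM there. Rprml was at 21.2 and 238 CPM in the same cells.

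The other members of the 12 were Ccn2, Mall, Ptprr and Tcim, with log2 ratios from 2.17 to 2.87 over all chosen cells. Ccn2, a matricellular protein induced by mechanical load, had its 84 mutant UMIs in 7 cells. With the selection rule applied at 3000 UMIs a cell its ratio was -0.40, and with male-type mutant against female-type control cells it was -2.47. All 12 genes were at least 2-fold higher within Wnt4/Pthlh-led cells. Of those with more than 3 UMIs in at least 1 library, 6 of 8 were within Enpp2/Prox1-led cells, 4 of 10 in the Npr3, Plvap and Col23a1 class and 0 of 11 in coronary capillary cells. The 12 were picked by the ratio over all chosen cells, so the counts within the 2 kinds follow in part from that choice. Over all genes with a mean of at least 50 CPM, the shares were 2.79%, 7.71%, 1.15% and 0.0627% in the same order.

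The 12 genes furthest lower in the mutant library included 8 that were at least 2-fold higher in Enpp2/Prox1-led than in Wnt4/Pthlh-led control cells. Of all 3961 genes outside the rule with at least 50 CPM in the higher kind, 221 were that much higher there in control. The share of Enpp2/Prox1-led cells was also lower in the mutant library, and its part in these ratios was not tested. Postn, the matrix protein periostin, was at 1446 CPM in control and 324 CPM in mutant, a log2 ratio of -2.15 [-2.35 to -1.96]. Within kinds it was at 2296 and 527 CPM in Enpp2/Prox1-led cells and at 577 and 253 CPM in Wnt4/Pthlh-led cells, so it was lower in both, against -0.58 on the log2 scale in the Npr3, Plvap and Col23a1 class. Rnase1, a secreted ribonuclease, had 0 UMIs in Wnt4/Pthlh-led cells of both libraries and went from 216 to 47.9 CPM in Enpp2/Prox1-led cells. Rtn1 was at 329 and 37.3 CPM in Enpp2/Prox1-led cells and at 55.9 and 56.0 CPM in Wnt4/Pthlh-led cells. Ank3, an adaptor of the membrane skeleton, was at 156 and 26.6 CPM in the former and at 18.1 and 14.4 CPM in the latter.

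Ahsg was lower within both kinds, at 472 and 154 CPM in Enpp2/Prox1-led cells and 22.7 and 3.61 CPM in Wnt4/Pthlh-led cells. Vegfb, a member of the VEGF family, and Hmgn3, a nucleosome-binding protein, were also lower in both, with log2 ratios of -1.15 and -1.51 in Wnt4/Pthlh-led cells and -1.71 and -2.64 in Enpp2/Prox1-led cells. Lsamp and Cldn5 had pooled ratios of -2.13 and -1.95, and ratios of -1.17 and -0.90 within Enpp2/Prox1-led cells. Col26a1 and Cenpa were the others, besides Dicer1. Without cells of at least 3 UMIs of G2 and M genes, the pooled ratio was -0.47 for Hmgn3 and -0.03 for Cenpa. Of the 12, 9 (of 11 with more than 3 UMIs in at least 1 library) were at least 2-fold lower within Wnt4/Pthlh-led cells, 10 within Enpp2/Prox1-led cells, 2 in the Npr3, Plvap and Col23a1 class and 1 in coronary capillary cells. These 12 too were picked by the pooled ratio, so the counts within kinds follow in part from that choice. Over all genes with a mean of at least 50 CPM, the shares were 2.11%, 4.44%, 0.441% and 0.0313% in the same order.

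**Figure D4:**
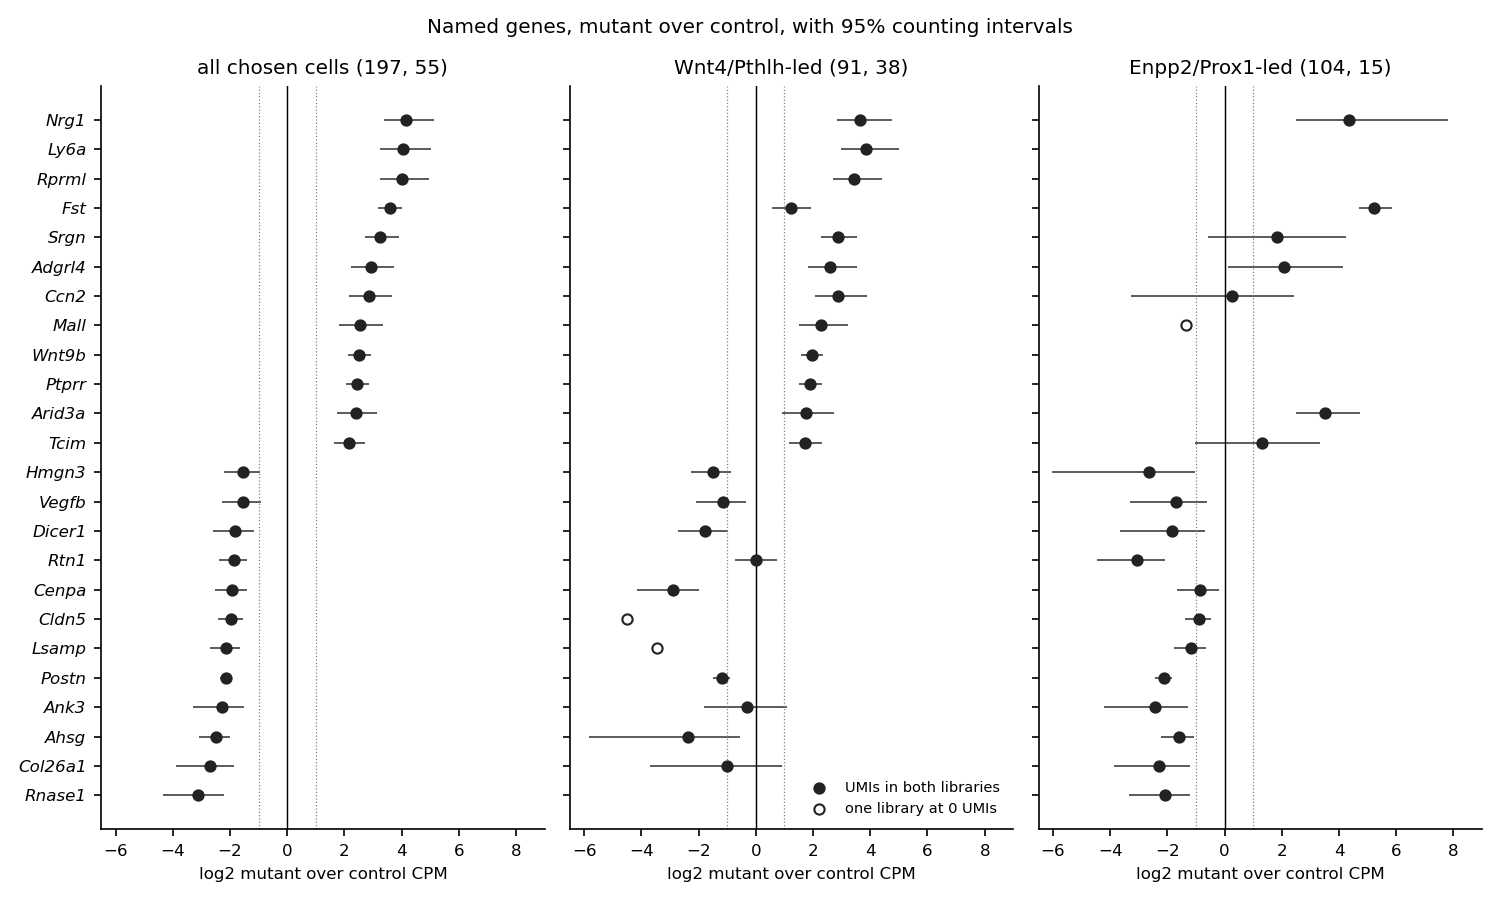
Log2 ratio of mutant over control CPM for the 12 highest and 12 lowest genes in all chosen cells (left) and in each kind (middle, right), with the numbers of control and mutant cells in each title. Lines are counting intervals, dotted lines mark 2-fold, an open circle has 0 UMIs in one library, and genes with at most 3 UMIs in both libraries are not drawn. Nrg1, Fst and Arid3a lie to the right and Postn, Ahsg and Dicer1 to the left in all 3 panels.

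Of the marker genes, given as values the rule used, Enpp2, Prox1 and Pthlh differed less within their own kind than over the pooled cells, and Wnt4 differed more. Enpp2 had a pooled log2 ratio of -2.14 and -1.11 within Enpp2/Prox1-led cells, and Prox1 had -1.07 and -0.18. Wnt4 had -0.09 pooled and -0.64 within Wnt4/Pthlh-led cells, and Pthlh 0.42 and -0.13. Ccdc141, outside the rule, had 0.63 pooled [0.46 to 0.80], -0.02 within Wnt4/Pthlh-led cells and 1.77 within Enpp2/Prox1-led cells. Nfatc1 had 0.26.

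Flow-responsive genes were higher in the mutant library as a list. Of 17 measured members (mean of at least 10 CPM), 11 exceeded their control level by 1.5-fold or more and 1 was below it by as much. The median log2 ratio was 0.84 against 0.03 over all genes, of which 14.1% of 8732 were that much higher and 13.5% lower. Ccn2, Wnt9b, Sox17 and Ccn1 had the largest ratios, 2.87, 2.52, 2.46 and 1.61. Klf2, the main transcription factor of laminar flow, outside the naming rule, was at 1835 and 2855 CPM in Wnt4/Pthlh-led cells and at 488 and 1448 CPM in Enpp2/Prox1-led cells. Within Wnt4/Pthlh-led cells 11 of 18 were higher and 3 lower (median 0.70, 14.6% and 15.4% of all genes), and within Enpp2/Prox1-led cells 6 of 15 and 2 (median 0.36, 25% and 18.9%). In the Npr3, Plvap and Col23a1 class it was 7 of 17 and 1 (median 0.31, 8.21% and 4.91%).

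Genes induced by tissue dissociation and by immediate early signals were higher in the mutant library in Wnt4/Pthlh-led cells and near the share over all genes in the others. Of 21 measured in all chosen cells, 12 were higher and 1 lower, with a median of 0.62, against 14.1% and 13.5% of all genes. Within Wnt4/Pthlh-led cells 12 of 21 were higher and 2 lower (median 0.63, 14.6% and 15.4% of all genes), and within Enpp2/Prox1-led cells 5 and 4 of 17 (median 0.17, 25% and 18.9%). With male-type mutant against female-type control cells the median was 0.04. Ier3, an immediate early gene, was at 18.7 CPM in control and 75.4 CPM in mutant, and Hspb1, Dusp1 and Atf3 had ratios of 1.93, 1.36 and 1.31. The summed level of the list was 3777 CPM in control and 6412 CPM in mutant Wnt4/Pthlh-led cells, 3474 and 4163 CPM in Enpp2/Prox1-led cells, and 2843 and 3326 CPM in the Npr3, Plvap and Col23a1 class. Its part in the flow-responsive values was not tested.

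Members of the hyaluronan and versican network did not all go one way. Of 11 measured, 7 were higher and 2 lower (median 0.71, 14.1% and 13.5% of all genes). Hapln1 was at 659 CPM in control and 1784 CPM in mutant Wnt4/Pthlh-led cells and at 316 and 1501 CPM in Enpp2/Prox1-led cells. It was higher too in the Npr3, Plvap and Col23a1 class, from 49.1 to 453 CPM. Cemip2, a hyaluronan-degrading surface protein, was at 161 and 521 CPM, and Has2, the hyaluronan synthase, at 8.23 and 30.4 CPM, over all chosen cells. Vcan, outside the naming rule, was lower in both kinds, with log2 ratios of -1.08 and -3.57.

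WNT ligands, receptors and modulators were counted in each kind of cell. Of 16 measured ligands, receptors and modulators in Enpp2/Prox1-led cells, 7 were higher and 1 lower in the mutant library (median 0.41), where 25% of all genes were higher and 18.9% lower (median 0.11). In Wnt4/Pthlh-led cells 1 was higher and 5 lower of 17 (median -0.37), where 14.6% and 15.4% of all genes were (median 0.0044). The difference between the kinds was not tested. The following genes were chosen after their values were seen. Apcdd1, a membrane inhibitor of WNT signalling, was at 50.9 CPM in control (23 of 104 cells) and 405 CPM in mutant (10 of 15 cells) Enpp2/Prox1-led cells, with 40.8% of the mutant UMIs in 1 cell. Nkd1, a feedback inhibitor, was at 82.3 and 319 CPM there. Dkk1, a secreted inhibitor, had 2 UMIs in control and 24 UMIs in 5 mutant cells. In Wnt4/Pthlh-led cells the secreted modulator Dkk2 was at 98.2 CPM in control (31 of 91 cells) and 21.7 CPM in mutant (4 of 38 cells). Bmp4, a BMP ligand, was at 135 CPM in control (40 of 104 cells) and 735 CPM in mutant (12 of 15 cells) Enpp2/Prox1-led cells, while Bmp2 had 54 UMIs in 18 control cells and 0 in the 15 mutant cells.

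Genes of the G2 and M phases were lower in Wnt4/Pthlh-led cells. Over all chosen cells 18 of 24 were lower and none higher (median -0.78), against 13.5% lower and 14.1% higher of all genes. That median was -0.26 with the mean of CPM per cell and -0.29 without cells of at least 3 UMIs of the list. At 3000 UMIs a cell, the share of cells with at least 3 UMIs of the list was 20.6% [15.1 to 27.1] in control and 25.5% [14.7 to 39.0] in mutant, so this share ran the other way. Within Wnt4/Pthlh-led cells 22 of 23 were lower and none higher (median -1.52), against 15.4% lower and 14.6% higher of all genes. Within Enpp2/Prox1-led cells 2 of 24 were lower and 3 higher (median 0.00), against 18.9% and 25% of all genes. In the Npr3, Plvap and Col23a1 class 0 of 21 were lower and 7 higher, against 4.91% and 8.21%. Cenpa, a centromeric histone, was at 128 CPM in control and 16.3 CPM in mutant Wnt4/Pthlh-led cells, and Cenpf at 165 and 32.5 CPM. Few cells carried these transcripts. The 5 highest cells held 56.9% of the list's UMIs in control and 82.0% in mutant Wnt4/Pthlh-led cells. In Enpp2/Prox1-led cells the 5 highest held 56.8% and 80.5%. At 3000 UMIs a cell, 17 of 90 control (18.9% [11.4 to 28.5]) and 4 of 38 mutant Wnt4/Pthlh-led cells (10.5% [2.94 to 24.8]) had at least 3 UMIs of the list, so the intervals overlapped. In Enpp2/Prox1-led cells the shares were 22.4% [14.6 to 32.0] and 53.3% [26.6 to 78.7].

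Other lists are set against the 14.1% of all genes that were higher and the 13.5% that were lower over all chosen cells. Endothelial-to-mesenchymal transition genes had 5 higher and 8 lower of 17 (median -0.39), with Postn and Vcan among the lower. Targets of p53 had 7 higher and 1 lower of 15 (median 0.17). Junction genes had 4 higher and 2 lower of 14 (median 0.45). Collagens had 0 higher and 3 lower of 13 (median -0.16), and Notch genes 3 and 3 of 14 (median 0.05). The Prox1 and Foxc2 programme had 4 and 5 of 20 (median 0.20). The medians of the last 3 and of the p53 targets lay within 0.3 of that of all genes. Of 29 lists with at least 5 measured members, the median lay at least 0.3 above that of all genes in 4 and at least 0.3 below in 3.

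**Figure D5:**
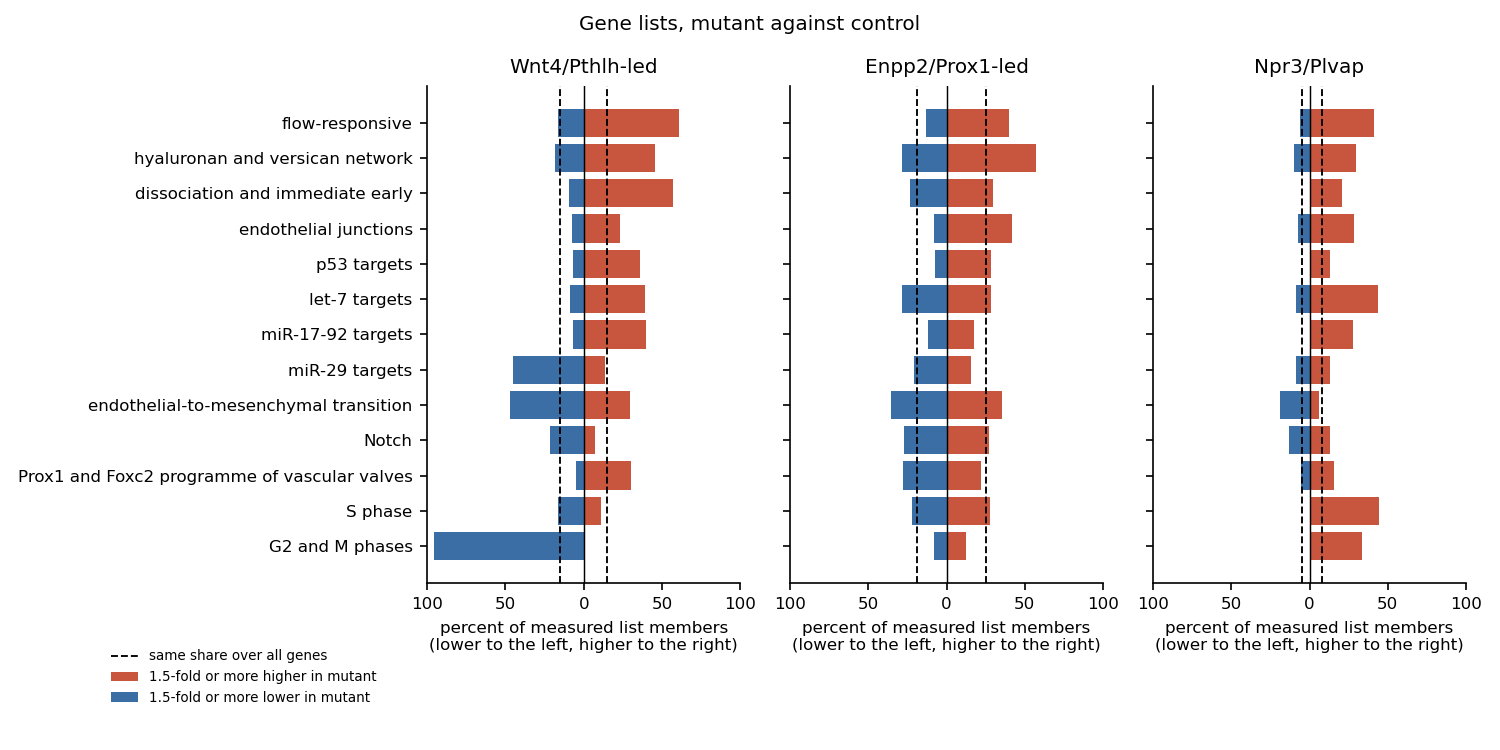
Bars give the percent of measured members of 13 gene lists that were at least 1.5-fold higher (right) or lower (left) in the mutant library, in each kind of chosen cell and in the Npr3, Plvap and Col23a1 class. Dashed lines mark the same share over all genes. The longest bar is that of the G2 and M list in Wnt4/Pthlh-led cells, 22 of 23 lower.

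Since Dicer1 makes mature microRNAs, genes with sites for 4 microRNA families were examined. A microRNA pairs with its targets through its seed, bases 2 to 8, shown in capitals in the mature sequences from RefSeq on GRCm38.p6, which show that the 2 let-7 members share a seed and the others do not.
let-7a-5p: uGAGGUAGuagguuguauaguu
let-7g-5p: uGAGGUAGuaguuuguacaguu
miR-29a-3p: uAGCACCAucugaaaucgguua
miR-126a-3p: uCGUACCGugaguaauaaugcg
miR-17-5p: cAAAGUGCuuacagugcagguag

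Literature targets of let-7 were mixed. Of 22 measured in the chosen cells, 4 were higher and 3 lower (median 0.25), near the 14.1% and 13.5% of all genes. In Wnt4/Pthlh-led cells 9 were higher and 2 lower of 23 (median 0.48, 14.6% and 15.4% of all genes). In Enpp2/Prox1-led cells it was 6 and 6 of 21 (median -0.37, 25% and 18.9% of all genes). The largest ratios were those of Arid3a (2.41), Dicer1 (-1.81), Cdk6 (-1.20) and Nr6a1 (0.99). Dicer1, counted among the lower members, is itself the gene targeted in the mutant embryos. Targets of miR-17-92 had 4 higher and 0 lower of 16 (median 0.20). Those of miR-29, mostly matrix genes, had 3 higher and 6 lower of 22 (median -0.21). Among these Hapln1 was higher (1.81), and Loxl2 (-1.40), Eln (-1.33) and Col4a1 (-1.31) were lower. Targets of miR-126 had 2 higher and 3 lower of 8 (median -0.07).

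Arid3a has 2 matches to the let-7 seed in its annotated 3′ UTR of 3082 bases, shown because it had the largest ratio of the let-7 list. They lie at chr10:79953888-79953917 and chr10:79954715-79954744 on the plus strand of GRCm38, in GENCODE M21, with the heptamer CTACCTC in capitals.
Arid3a site 1: cacatgcaaggcaagtttctttCTACCTCa
Arid3a site 2: aaaaaaaagaaaaaactgttttCTACCTCt

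The share of 3′ UTRs with each seed heptamer was counted in the genes that differed and in all genes. CTACCTC, the let-7 site, was in 8.70% of 3494 genes with a UTR, in 14 of 131 genes that were at least 2-fold higher in the mutant library (10.7%) and in 5 of 81 that were lower (6.17%). TGGTGCT, the miR-29 site, was in 16.5%, 14.5% and 18.5%. GCACTTT, the miR-17 site, was in 14.8%, 16.0% and 8.64%. CGGTACG, the miR-126 site, was in 0.143% of all genes and in none of either group. Only the sense strand of the UTR was searched, and the median UTR length was 1173 bases over all genes, 996 in the higher and 884 in the lower genes. A match is a description of letters, not evidence of binding.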

How the data were processed

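The authors deposited raw UMI counts per gene and barcode for each library, and their processing notes name Cell Ranger, version 5.0.0, and the mm10 build. The deposited unit is counts. Both files list 32285 genes. Counting options and any barcode filter are not given in the sources used here. Counts were summed per class and library, scaled to CPM, and compared as log2 ratios with 0.5 counts added and exact conditional Poisson intervals. Shares carry exact Clopper-Pearson intervals. Python 3.11.15, numpy 2.4.6, scipy 1.17.1 and pandas 2.3.3 were used, and the code was tested on simulated data. No doublet caller was run. Alternatives left out cells rich in UMIs or in markers of other cell types.

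Between libraries, the genes named were the 12 highest and 12 lowest log2 ratios at a mean of at least 50 CPM. Between kinds or classes, at least 50 CPM was asked in the higher one of both libraries. The higher CPM had to reach the gene's highest CPM in any other class divided by 5. The 23 genes of the selection rule were left out, and up to 4 members of a described list were added. Of the genes that the rules name, 1 is not reported here. The cell group and gene lists were chosen with earlier results of these data known. UTRs came from GENCODE M21.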

Additional observations from a re-analysis of the deposited data

Results flagged for a closer look

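Mest, an imprinted gene, had a log2 ratio of mutant over control of -1.86 in Wnt4/Pthlh-led cells (928 and 255 CPM) and 1.74 in Enpp2/Prox1-led cells (296 and 990.2 CPM), opposite directions in the 2 kinds of cell. The difference was not tested.

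Tnnt2 and Myl2, cardiomyocyte genes, were lower in the mutant library in the chosen cells (-1.70 and -1.54) and higher in the Npr3, Plvap and Col23a1 class (1.25 and 1.41). The difference was not tested. Without the 3 control cells richest in cardiomyocyte markers the ratios in the chosen cells were -0.29 and 0.13, and in the mutant Npr3, Plvap and Col23a1 class the highest cell held 39.3% and 34.4% of the UMIs.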

How the results depend on the processing

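No paired analysis was possible because each genotype has 1 library. Of 19 alternatives, 14 left the count of higher genes (131) within 1.5 times and 15 the count of lower genes (87). The higher count was 239 with the selection rule at 3000 UMIs a cell, 234 with male-type mutant against female-type control cells, 262 in Enpp2/Prox1-led cells, 256 at a mean of 20 CPM and 582 with at least 10 counts and no other floor. The lower count was 157 (male-type), 151 (Enpp2/Prox1-led), 218 (20 CPM) and 919 (no other floor). The 7 lists whose median lay at least 0.3 from that of all genes became 15 (3000 UMIs), 13 (without the 25% of cells highest in other types' markers), 11 (without cycling cells), 11 (female-type), 12 (male-type) and 11 (no other floor). The share of chosen cells was 1.48% in control and 0.625% in mutant with a 2-fold lead, 1.11% and 0.401% at 3000 UMIs, and 1.36% and 0.484% without Wnt4, and 1.47% in mutant for female-type barcodes. Unthinned shares were 71.1% and 96.4% for Ccdc141 and 44.2% for Lsamp in control.

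For named genes, 354 values stayed within the counting interval, 79 moved and 4 reversed: Ccn2 (-0.40 at 3000 UMIs, -2.47 male-type), Mall (-1.34 in Enpp2/Prox1-led cells) and Rtn1 (0.0051 in Wnt4/Pthlh-led cells). Genes with at most 3 UMIs in both libraries gave no value. The median of the WNT target list, -0.37, was 0.38 without Wnt4, 0.37 (female-type), 0.15 and 0.67 in the 2 kinds, 0.23 (mean CPM per cell), 0.56 (20 CPM), 0.10 (no other floor) and 0.46 with equal weight of both kinds. The causes were not tested. The splits by kind, their equal weight and the omission of 3 cells were chosen after seeing the data. Pools, depth and only 15 mutant Enpp2/Prox1-led cells limit every comparison.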
